A study of Mus musculus with 4 samples.

Results

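The genes examined here encode the heat shock proteins and molecular chaperones of the mouse. They were chosen by a rule on gene symbols, with earlier results of these data known. This rule took the HSP70, HSP90, small HSP, DNAJ and BAG families, the heat shock transcription factors (*Hsf1* to *Hsf5*), and the subunits of the mitochondrial and cytosolic chaperonins. The rule found 90 of the 54920 genes listed. Bulk RNA-seq had been performed on ID4-EGFP+ spermatogonia, a population enriched for spermatogonial stem cells (SSCs), which were collected by flow cytometry from neonatal testes at postnatal day 8. Control mice carried floxed *Cnot3* alleles and *Id4-eGfp* and had no *Ddx4*-creER, although the labels call them wild-type. *Cnot3*-cKO mice carried the same floxed alleles and *Id4-eGfp* together with *Ddx4*-creER, a Cre recombinase that is expressed in germ cells and needs tamoxifen to act. Mice of both groups had received 4-OHT, the active form of tamoxifen, from day 1 to day 3. There were 2 control and 2 *Cnot3*-cKO libraries. The study calls its replicates biological and gives more of them than were analysed here, and no source used here ties each library to its own animals. The p-values thus measure the spread between these libraries, which may be technical.

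Chaperones bind unfolded proteins and help them to fold, to assemble or to be degraded. HSP70 proteins bind short exposed stretches of a client in a cycle that is driven by ATP, that DNAJ (HSP40) proteins start and that BAG proteins help to reset. HSP90 proteins act later, on kinases, steroid receptors and other nearly folded clients, while small HSPs hold unfolded proteins without using ATP. The cytosolic chaperonin TRiC encloses actin, tubulin and other clients in a ring, and HSP60 and HSP10 form such a chamber in mitochondria. HSF1 switches on the stress-inducible members after heat or other damage to proteins. The testis is known for chaperones of its own, such as HSPA2 and HSPA1L, and for a low heat shock response in its meiotic germ cells.

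*Cnot3*, which encodes a subunit of the CCR4-NOT deadenylase and was the targeted gene, had 58.6 and 50.2 CPM in control and 19.2 and 19.9 CPM in *Cnot3*-cKO cells (CPM, counts relative to the TMM-scaled library total). This was a reduction to 0.360 of the control level (log2 fold change -1.48, standard error 0.13, adjusted p = 1.48e-05). The libraries held 40957899 and 43378493 counted reads in controls and 22192964 and 28019626 reads in *Cnot3*-cKO cells. Of all genes, 23952 passed the expression filter, and the median log2 fold change among them was 0.01. Fold changes are given as *Cnot3*-cKO over control, with adjusted p-values from edgeR over all tested genes. Where values are set against each other, the 2 controls come first. Markers of other testis cells were present in all libraries and higher in *Cnot3*-cKO cells. Of 16 Sertoli cell markers, 15 were called higher at a fold change above 2, and their summed level was 482 and 488 CPM in controls against 1504 and 1517 CPM. Likewise, 4 of 5 tested Leydig cell markers were called (322 to 368 against 831 to 896 CPM), with *Insl3* at 0 reads in all libraries, and so were 7 of 9 macrophage markers (135 to 224 against 403 to 489 CPM). The calls were 1 of 7 for peritubular myoid cells (19.96 to 24.6 against 35.9 to 43.5 CPM) and 2 of 6 for endothelial cells (23.2 to 25.9 against 37.7 to 43.6 CPM). The 10 pan-germ cell markers, which check the labelled cell type, summed to 5561 and 6042 CPM in controls and 5101 and 5340 CPM in *Cnot3*-cKO cells, and 0 were called above 2-fold. At any fold change edgeR called 1 of them lower (*Piwil2*, log2 fold change -0.44, adjusted p = 0.00128) and DESeq2 called 2 lower. SSC markers summed to 801 to 932 CPM in controls and 880 to 894 CPM in *Cnot3*-cKO cells, although single markers moved. Of these 10 genes, 5 were called higher at any fold change, 2 of them above 2-fold, and 1 was called lower (median log2 fold change 0.59). Markers of differentiating spermatogonia summed to 813 and 888 CPM in controls and 608 and 628 CPM in *Cnot3*-cKO cells, and 3 of 7 were called lower above 2-fold. Genes that respond to tissue dissociation summed to 129.99 and 142 CPM in controls and 194 and 229 CPM in *Cnot3*-cKO cells, and 4 of 12 were called higher. The part that these cells or the dissociation have in the results below was not tested. In bulk samples, fewer cells of a type and less RNA per cell cannot be told apart.

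Most chaperone genes did not pass the test between control and *Cnot3*-cKO ID4-EGFP+ cells. Of the 90 genes, 86 passed the expression filter, each of them with a level above the filter in all 4 libraries. The 4 that did not were *Hspb2*, *Hspb7*, *Dnajb8* and *Dnajc22*, none of which had more than 9 reads in any library. At an adjusted p under 0.01 with more than a 2-fold change, 3 members were called higher in *Cnot3*-cKO cells, namely *Hspb1*, *Dnajb13* and *Hsf3*. That is 3.49% of the tested members, beside 4.03% of all tested genes. With the same thresholds 0 members were called lower (edgeR), beside 0.735% of all tested genes, and DESeq2 gave 0 as well. At an adjusted p under 0.01 and any fold change, 6 members were called higher (6.98%, beside 6.21% of all tested genes) and 3 were called lower (3.49%, beside 4.7% of all tested genes). The 3 further genes called higher were *Dnajb14*, *Cct6a* and *Dnaja1*, and the 3 called lower were *Hsp90ab1*, *Bag1* and *Dnajc16*. These shares lie near the background, so the counts are no result about chaperone genes as a set. Scaling to the pan-germ cell genes moved the median log2 fold change of all genes to 0.16 and that of the members to 0.25, and then 9 members were called higher and 0 lower at any fold change (1907 and 358 of all genes, against 1488 and 1125 with TMM). The unadjusted p was under 0.05 in 25 members, of which 14 had higher and 11 had lower levels in *Cnot3*-cKO cells. The share of all tested genes at this limit was not computed. This count and those of smaller groups below thus have no background beside them and are no result about chaperone genes.

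In 32 members (37.2%) both *Cnot3*-cKO values exceeded both control values, as they did in 30.5% of all tested genes. In 22 members (25.6%) both lay below, as in 28.6% of all tested genes, and in the other 32 members the groups overlapped. The median log2 fold change of the tested members was 0.09. Of the 47 members with at least 50 CPM in controls, whose standard errors were 0.07 to 0.12 on the log2 scale, 42 were not called, and their log2 fold changes lay between -0.38 and 0.40. The chaperone genes together took 1.78 and 1.85% of all counted reads in controls against 1.99 and 1.90% in *Cnot3*-cKO libraries. On the TMM-scaled level the same sums overlapped, at 18111 and 19049 CPM in controls and 19501 and 18606 CPM in *Cnot3*-cKO cells. TRiC, HSP90 and HSP70 genes gave most of these reads. TRiC genes took 0.503 and 0.541% of reads in controls against 0.615 and 0.586% in *Cnot3*-cKO cells, and HSP70 genes took 0.374 and 0.406% against 0.456 and 0.433%. HSP90 genes took 0.471 and 0.460% in controls against 0.454 and 0.425% in *Cnot3*-cKO cells. The plot of reads by subfamily shows these shares.

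**Figure D1:**
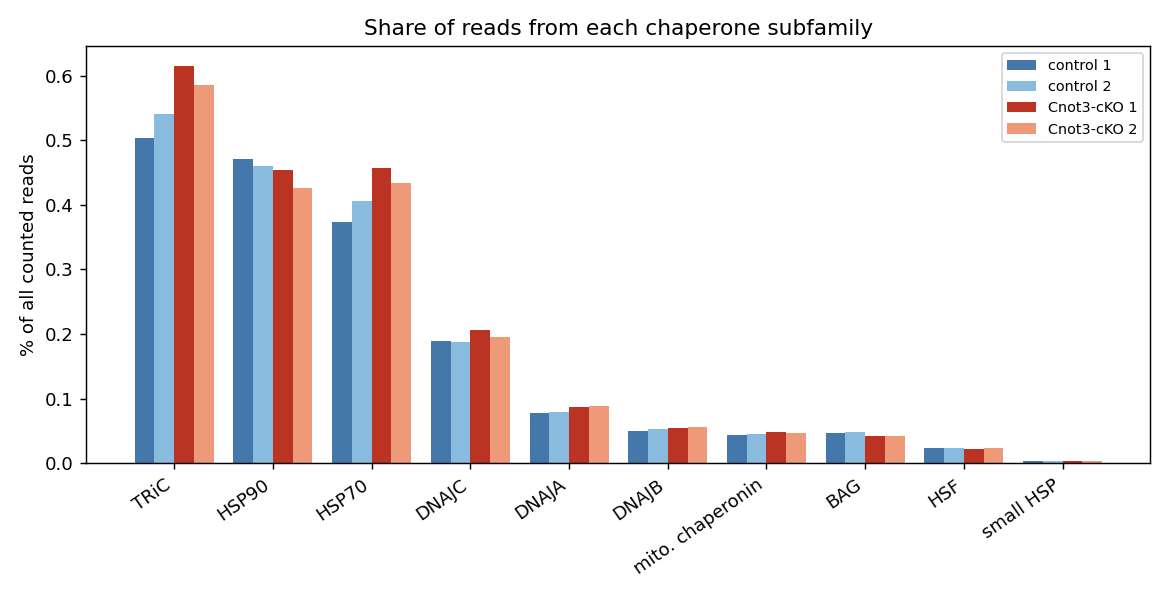
Share of all counted reads (percent, y axis) that came from each chaperone subfamily (x axis), with a bar for each of the 4 libraries. TRiC and HSP70 bars are taller in both *Cnot3*-cKO libraries than in both controls, and HSP90 bars are shorter.

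**Figure D2:**
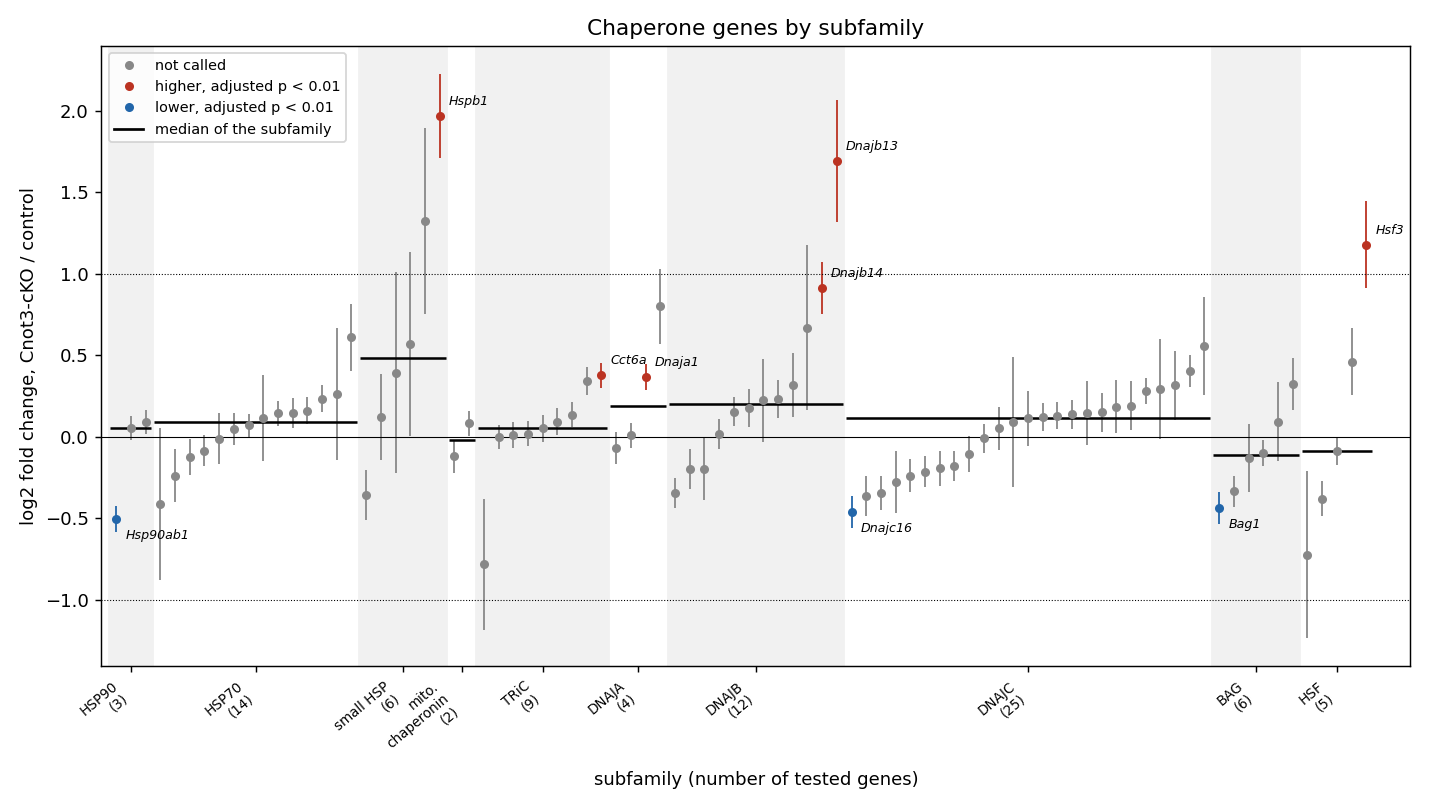
The log2 fold change of *Cnot3*-cKO over control (y axis) of the 86 tested chaperone genes, grouped by subfamily (x axis, number of tested genes in brackets). Points are genes with standard errors, black lines are subfamily medians, dotted lines mark a 2-fold change, and colours mark an adjusted p under 0.01. Most points lie near 0, and the 9 called genes are spread over 8 subfamilies.

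The promoters of the chaperone genes were searched for 2 known stress elements. RefSeq windows of 250 bases before to 50 bases after the transcription start were matched for 73 of the 90 members on GRCm38.p6. Both strands were read. The members without a window were not searched, and they include *Hsp90aa1*, *Hsp90ab1*, *Hspa8*, *Hspa9* and *Hsf1*. The heat shock element, the site bound by HSF1, was searched as TTCNNGAANNTTC and its reverse complement GAANNTTCNNGAA. It was found in 4 members (5.48%), which are *Hspd1*, *Hspe1*, *Hsph1* and *Dnajb6*, beside 0.662% of 27025 genes with a window. The endoplasmic reticulum (ER) stress element was searched as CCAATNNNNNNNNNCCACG and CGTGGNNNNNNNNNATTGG. It was found in 3 members (4.11%), which are the ER chaperone genes *Hspa5*, *Hsp90b1* and *Dnajc3*, beside 0.137% of genes. The element overlaps the common CCAAT box, which alone was found in 43.8% of members and 41.1% of genes. A match of letters describes the sequence and does not show a bound site. Only exact matches were counted, so a window without a match may still hold a variant of the element. The sites below are examples of each element, with the matched letters in capitals. The match of *Hsph1*, which lies after the transcription start, and that of *Dnajc3* are not shown. The window of *Hspb1*, the chaperone gene with the largest fold change, held no exact match to either element. The bases before its start are shown for comparison.

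*Hspe1*, chr1:55088053-55088082, + strand, 2 overlapping heat shock element matches in the window shared with *Hspd1*: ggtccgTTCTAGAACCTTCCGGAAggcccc

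*Dnajb6*, chr5:29735844-29735872, + strand, heat shock element: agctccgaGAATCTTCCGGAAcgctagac

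*Hspa5*, chr2:34772020-34772048, + strand, ER stress element: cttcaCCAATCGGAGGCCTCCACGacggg

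*Hsp90b1*, chr10:86705633-86705661, - strand, ER stress element: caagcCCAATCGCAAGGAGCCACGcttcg

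*Hsp90b1*, chr10:86705528-86705556, - strand, ER stress element as its reverse complement: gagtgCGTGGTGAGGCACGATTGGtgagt

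*Hspb1*, chr5:135887669-135887918, + strand, 250 bases before the start, no match: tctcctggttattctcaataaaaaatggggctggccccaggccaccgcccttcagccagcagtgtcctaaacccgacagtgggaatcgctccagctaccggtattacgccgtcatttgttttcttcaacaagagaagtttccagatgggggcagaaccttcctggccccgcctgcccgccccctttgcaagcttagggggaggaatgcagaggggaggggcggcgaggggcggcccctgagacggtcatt

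None of the members with an exact match to either element was called by edgeR. An unadjusted p was under 0.05 in 0 of the 4 and 1 of the 3 (*Dnajc3*), and DESeq2 called 0 and 1. The 4 with the heat shock element had log2 fold changes from -0.12 to 0.16 (median 0.07), and the 3 with the ER stress element had log2 fold changes from 0.09 to 0.40 (median 0.15). The median was 0.12 in the 67 tested members without an exact heat shock element match, of which 6 were called higher and 2 were called lower. Among these 67 are the heat-inducible *Hspa1a*, *Hspa1b*, *Dnajb1*, *Bag3* and *Hspb1*, so the split does not separate heat-inducible genes from others.

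The HSP90 genes were among the most abundant chaperone transcripts. In *Cnot3*-cKO cells 1 of the 3 fell (33.3%, beside 4.7% of all tested genes). *Hsp90ab1* (chr17:45567775-45573271, GRCm38, - strand) encodes HSP90 beta, the constitutive cytosolic form. Its level was 2129 and 1902 CPM in control and 1487 and 1360.3 CPM in *Cnot3*-cKO cells. Both *Cnot3*-cKO libraries lay below both controls, and the mean went from 2016 ± 161 to 1423 ± 89.3 CPM (SD, n = 2). The transcript fell to 0.706 of its control level (log2 fold change -0.50, standard error 0.08, adjusted p = 9.34e-04). Without *Cnot3*-cKO replicate 2 the adjusted p was 0.0120, and after scaling to pan-germ cell genes the log2 fold change was -0.35 with an adjusted p of 0.0529, so this call depended on both. The markers of differentiating spermatogonia were lower in the same libraries (813 and 888 against 608 and 628 CPM), and their part in this result was not tested. *Hsp90aa1* encodes HSP90 alpha, the stress-inducible cytosolic form, and had 1879 and 2045 CPM in control and 2104 and 1976 CPM in *Cnot3*-cKO cells. These groups overlapped (log2 fold change 0.06, standard error 0.07, adjusted p = 0.660). *Hsp90b1*, which encodes the ER form GRP94, had 784 and 790.0 CPM in control and 853 and 825 CPM in *Cnot3*-cKO cells and was not called either (log2 fold change 0.09, standard error 0.07, adjusted p = 0.422).

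On a scale per transcript length (RPKM, computed here from exon lengths of GENCODE M21), *Hsp90ab1* had 710.1 and 634 RPKM in control and 496 and 454 RPKM in *Cnot3*-cKO cells. *Hsp90aa1* had 478 and 520.2 RPKM in control and 535 and 503 RPKM in *Cnot3*-cKO cells. *Hsp90ab1* was thus the highest of the 86 members in both controls, whereas *Hsp90aa1* was the higher of the pair in both *Cnot3*-cKO libraries. Within a library, *Hsp90aa1* reads were 0.882 and 1.08 times *Hsp90ab1* reads in controls and 1.42 and 1.45 times in *Cnot3*-cKO cells. *Hsp90ab1* gave 44.4 and 40.2% of all HSP90 reads in controls against 33.5 and 32.7% in *Cnot3*-cKO cells. These ratios use no scaling between libraries, and the pair was chosen after its values were seen. Of the 50-base windows in *Hsp90aa1* transcripts, 47.5% also occur in other annotated genes, mainly the pseudogene *Gm12346*, beside 3.44% for *Hsp90ab1*. How reads that match several genes were counted is not given in the sources used here.

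**Figure D3:**
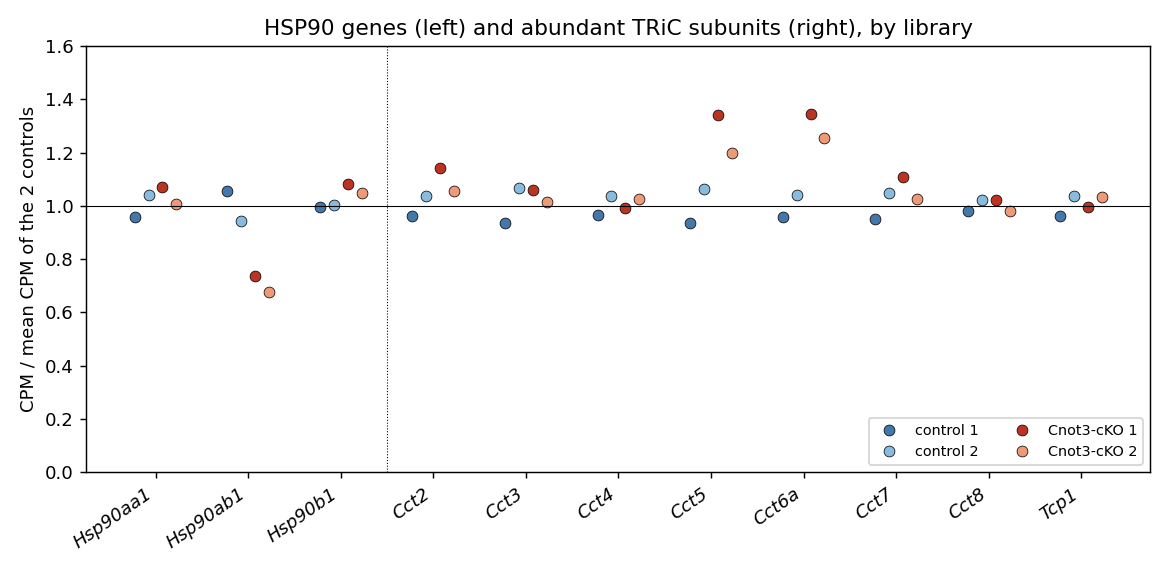
CPM of each library divided by the mean of the 2 controls (y axis, from 0) for the HSP90 genes and the 8 abundant TRiC subunit genes (x axis). *Hsp90ab1* lies near 0.7 in both *Cnot3*-cKO libraries, *Cct5* and *Cct6a* lie above both controls, and most other subunits lie close to 1.

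None of the 14 HSP70 and HSP110 genes was called at either threshold, with a median log2 fold change of 0.09 and a range from -0.41 to 0.61. The unadjusted p was under 0.05 in 2 of them, and DESeq2 called 0. *Hspa8*, the constitutive cytosolic HSP70 (HSC70) and the most abundant of the family per length, had 1469 and 1653 CPM in control and 1857 and 1635 CPM in *Cnot3*-cKO cells. The groups overlapped because *Cnot3*-cKO replicate 2 lay below control replicate 2 (log2 fold change 0.16, standard error 0.08, adjusted p = 0.210). *Hspa5* encodes BiP, the HSP70 of the ER and a target of the unfolded protein response, and had 546 and 668 CPM in control and 659 and 685 CPM in *Cnot3*-cKO cells (log2 fold change 0.15, adjusted p = 0.312). Its groups overlapped too. *Hspa9*, the mitochondrial form mortalin, had 457 and 472 CPM in control and 528 and 499 CPM in *Cnot3*-cKO cells (log2 fold change 0.15, adjusted p = 0.213). Without control replicate 2, *Hspa8* (log2 fold change 0.24, adjusted p = 0.00122) and *Hspa5* (0.29, adjusted p = 7.00e-04) passed the 0.01 threshold, and neither did without any other library.

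The stress-inducible HSP70 transcripts were scarce in both groups. *Hspa1a* had 3.92 and 3.57 CPM in control and 4.50 and 3.63 CPM in *Cnot3*-cKO cells, and the groups overlapped (log2 fold change 0.12, standard error 0.26, adjusted p = 0.816). *Hspa1b*, its near-identical neighbour on chromosome 17, had 6.70 and 8.75 CPM in control and 10.8 and 12.8 CPM in *Cnot3*-cKO cells, and both *Cnot3*-cKO values exceeded the controls (log2 fold change 0.61, standard error 0.21, adjusted p = 0.0536). Of the 50-base windows, 60.3% of those of *Hspa1a* and 62.3% of those of *Hspa1b* also occur in other annotated genes, mainly in each other. Reads may thus have been split between this pair, and the separate values are uncertain. The adjusted p of *Hspa1b* was 0.00873 without control replicate 2. *Hsph1* encodes HSP110, a nucleotide exchange factor of HSP70, and had 107 and 92.4 CPM in control and 100.4 and 105 CPM in *Cnot3*-cKO cells (log2 fold change 0.05, adjusted p = 0.798). The HSP70 genes of the germ line did not pass the test. *Hspa2*, needed for meiosis in spermatocytes, had 17.4 and 21.0 CPM in control and 15.4 and 17.1 CPM in *Cnot3*-cKO cells, so that both *Cnot3*-cKO values were below both controls (log2 fold change -0.24, standard error 0.16, adjusted p = 0.346). *Hspa1l* was near 1 CPM in all libraries (0.993 and 1.402 against 0.927 and 0.873 CPM, log2 fold change -0.41, adjusted p = 0.602). *Hspa4l*, an HSP110 relative that is abundant in testis, had 150.04 and 161 CPM in control and 187 and 180.0 CPM in *Cnot3*-cKO cells (log2 fold change 0.23, standard error 0.08, adjusted p = 0.0701).

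The small HSPs held the chaperone gene with the largest change. *Hspb1* (chr5:135887919-135889563, GRCm38, + strand) encodes HSP27 (HSP25 in the mouse), a stress-inducible holdase that also binds actin filaments. Its level was 1.79 and 1.95 CPM in control and 6.75 and 7.89 CPM in *Cnot3*-cKO cells. The groups were far apart, and the mean rose from 1.87 ± 0.114 to 7.32 ± 0.804 CPM (SD, n = 2), which is 3.92-fold (log2 fold change 1.97, standard error 0.26, adjusted p = 2.59e-04). The log2 fold change stayed between 1.85 and 2.07 when any library was left out, with an adjusted p under 0.01 in all 4 cases. *Hspb1* gave 6.22 and 6.73% of small HSP reads in controls against 21.1 and 25.9% in *Cnot3*-cKO cells. For *Hspb1*, 48.8% of 50-base windows also occur in other annotated genes, mainly its processed pseudogene *Hsp25-ps1* on chromosome 13. The pseudogene shares 86.6% of its 50-base windows with other genes, mainly *Hspb1*. Its reads numbered 18 and 32 in controls against 50 and 67 in *Cnot3*-cKO cells. *Hspb1* and the pseudogene together numbered 90 and 114 reads in controls against 203 and 293 in the *Cnot3*-cKO libraries, which were the shallower ones. The summed Sertoli cell markers moved in the same direction (482 and 488 against 1504 and 1517 CPM), as did the summed macrophage markers (224 and 135 against 489 and 403 CPM). Their part in the *Hspb1* result was not tested.

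The other small HSP genes were mostly scarce and none was called. *Hspb8*, the partner of BAG3 in selective autophagy, had 0.397 and 0.523 CPM in control and 1.501 and 0.838 CPM in *Cnot3*-cKO cells (log2 fold change 1.33, standard error 0.57, adjusted p = 0.125). *Hspb6*, a holdase of muscle and other tissues, had 3.85 and 3.28 against 4.10 and 3.67 CPM, and the ratio of *Hspb1* to *Hspb6* reads went from 0.465 and 0.594 in controls to 1.65 and 2.15 in *Cnot3*-cKO cells. *Hspb9*, a testis form, had 0.472 and 0.784 against 0.706 and 1.15 CPM (log2 fold change 0.57, adjusted p = 0.542). *Hspb11*, which bears the family's symbol but encodes a protein of intraflagellar transport, was the most abundant of them at 21.7 and 21.7 against 18.4 and 15.5 CPM (log2 fold change -0.36, standard error 0.15, adjusted p = 0.123). The small HSP median log2 fold change of 0.48 rests on 6 genes, of which 5 had under 4 CPM in controls.

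**Figure D4:**
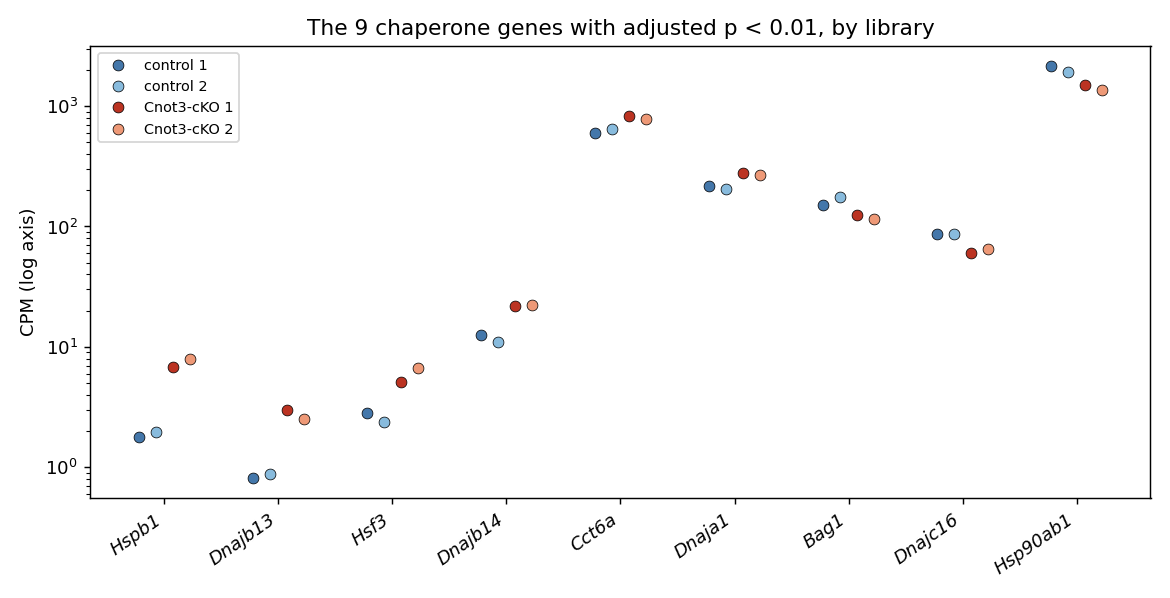
CPM (y axis, log scale) of the 9 chaperone genes with an adjusted p under 0.01 (x axis), with a point for each of the 2 control and 2 *Cnot3*-cKO libraries. In none of the 9 genes do the groups overlap, but the genes were chosen by a test on these same libraries. Among all tested genes, both *Cnot3*-cKO values lay above both controls in 30.5% and below both in 28.6%. *Hspb1*, *Dnajb13* and *Hsf3*, the 3 with a change above 2-fold, have the lowest levels.

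DNAJ genes were the largest group, with 41 of 43 tested. At any fold change 3 were called higher (7.32%, beside 6.21% of all tested genes) and 1 was called lower (2.44%, beside 4.7%). The DNAJ median was 0.13 on the log2 scale. *Dnajb13* (chr7:100501716-100514960, - strand), which encodes a radial spoke protein of sperm flagella and other motile cilia, had 0.819 and 0.879 CPM in control and 3.001 and 2.51 CPM in *Cnot3*-cKO cells. The mean rose from 0.849 ± 0.0425 to 2.76 ± 0.345 CPM (SD, n = 2), or 3.23-fold (log2 fold change 1.69, standard error 0.37, adjusted p = 0.00700). Without *Cnot3*-cKO replicate 1 the adjusted p was 0.0175. *Dnajb14* (chr3:137867675-137916557, + strand) encodes an HSP40 of the ER membrane and was singled out after its values were seen. It had 12.4 and 10.96 CPM in control and 21.9 and 22.2 CPM in *Cnot3*-cKO cells, so that the *Cnot3*-cKO level was 1.88-fold the control (log2 fold change 0.91, standard error 0.16, adjusted p = 0.00163). This call was kept whichever library was left out. *Dnajb13* and *Dnajb14* rose together with the cell markers given above, whose part was not tested.

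Among the abundant DNAJ genes the differences were smaller. *Dnaja1* (chr4:40722150-40737149, + strand), a cytosolic cochaperone of HSC70 that is induced by heat, had 218 and 204 CPM in control and 277 and 267 CPM in *Cnot3*-cKO cells. It rose 1.29-fold (log2 fold change 0.37, standard error 0.08, adjusted p = 0.00710), and the adjusted p was 0.101 without *Cnot3*-cKO replicate 1 and 0.0405 without replicate 2. *Dnaja2*, its close relative, had 471 and 494 CPM in control and 479 and 493 CPM in *Cnot3*-cKO cells, where the groups overlapped (log2 fold change 0.01, standard error 0.08, adjusted p = 0.950). Reads of *Dnaja1* were 0.462 and 0.412 times those of *Dnaja2* in controls and 0.579 and 0.542 times in *Cnot3*-cKO cells. *Dnaja3*, the mitochondrial form, had 95.5 and 108 against 96.3 and 97.9 CPM (log2 fold change -0.07, adjusted p = 0.685). *Dnaja4* had 4.15 and 3.97 against 6.49 and 7.65 CPM and missed the threshold (log2 fold change 0.80, standard error 0.23, adjusted p = 0.0269). *Dnajb1*, the classical heat-inducible HSP40, had 52.8 and 63.6 against 64.3 and 67.3 CPM (log2 fold change 0.18, standard error 0.11, adjusted p = 0.320). *Dnajb3*, a testis form, had 9.31 and 10.4 against 8.83 and 8.41 CPM (log2 fold change -0.20, adjusted p = 0.536).

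DNAJC proteins share only the J domain and have diverse roles, and 24 of the 25 tested genes were not called. The other was called lower (4%, beside 4.7% of all tested genes). *Dnajc16* (chr4:141760189-141790931, - strand), a membrane-bound member of the ER, had 86.4 and 86.6 CPM in control and 60.7 and 64.8 CPM in *Cnot3*-cKO cells. It fell to 0.726 of the control level (log2 fold change -0.46, standard error 0.10, adjusted p = 0.00536). The adjusted p was 0.0604 without *Cnot3*-cKO replicate 1, 0.0174 without replicate 2, 0.0117 with library size scaling, and 0.0632 after scaling to pan-germ cell genes. *Dnajc2*, a ribosome-associated cochaperone and the most abundant of the group per length, had 304 and 320.5 against 360.5 and 323 CPM (log2 fold change 0.13, adjusted p = 0.322). *Dnajc30*, a mitochondrial member, had the largest positive value but its *Cnot3*-cKO libraries were far apart (3.25 and 3.09 against 5.96 and 3.42 CPM, log2 fold change 0.56, standard error 0.30, adjusted p = 0.228). The 3 DNAJ genes of the ER lumen that are described here had values of both signs. *Dnajc3* (P58IPK) had 59.9 and 62.8 against 83.4 and 79.0 CPM (log2 fold change 0.40, standard error 0.10, adjusted p = 0.0118) and *Dnajc10* (ERdj5), a disulfide reductase, had 177 and 180.4 against 213 and 221 CPM (log2 fold change 0.28, standard error 0.08, adjusted p = 0.0276), with both *Cnot3*-cKO libraries above the controls. *Dnajb11* (ERdj3), a cofactor of BiP, had 125 and 139.5 against 105 and 104 CPM, with both below (log2 fold change -0.34, standard error 0.09, adjusted p = 0.0205). In this fit none of these 3 reached an adjusted p of 0.01, and *Dnajc3* and *Dnajc10* were chosen for description after their values were seen. *Dnajc3* passed without control replicate 1 (adjusted p = 0.00998) or 2 (adjusted p = 0.00225), *Dnajc10* without control replicate 2 (adjusted p = 0.00935) and *Dnajb11* without control replicate 1 (adjusted p = 7.91e-05). With all libraries, *Dnajc3* was under 0.01 in 6 of 7 other settings (largest adjusted p 0.0163, with RLE), *Dnajc10* in 2 (library size only and pan-germ cell scaling) and *Dnajb11* in 1 (no filter).

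The cytosolic chaperonin was expressed at a high level. Of its 9 TRiC subunit genes, 1 was called higher (11.1%, beside 6.21% of all tested genes), and the median log2 fold change was 0.05. *Cct6a* (chr5:129786998-129846371, + strand), the zeta subunit, had 594 and 645 CPM in control and 834 and 776 CPM in *Cnot3*-cKO cells. Its mean rose from 619 ± 35.8 to 805 ± 40.6 CPM (SD, n = 2), or 1.30-fold (log2 fold change 0.38, standard error 0.08, adjusted p = 0.00491). The adjusted p was 0.101 without *Cnot3*-cKO replicate 1 and 0.0165 without replicate 2. *Cct5*, the epsilon subunit, was described after its values were seen and had 682 and 773 CPM in control and 975 and 871 CPM in *Cnot3*-cKO cells, just outside the threshold (log2 fold change 0.34, standard error 0.09, adjusted p = 0.0139). It passed without control replicate 1 (adjusted p = 0.00215) and without control replicate 2 (adjusted p = 9.88e-08). With all libraries it was under 0.01 in 5 of 7 other settings, and the adjusted p was 0.0201 with RLE and 0.0123 with DESeq2. *Cct8*, the theta subunit, had 861 and 898 CPM in control and 897 and 863 CPM in *Cnot3*-cKO cells, with overlapping groups (log2 fold change 0.00, standard error 0.07, adjusted p = 0.995). *Cct2*, the beta subunit and the most abundant per length over the 4 libraries, although *Cct5* was level with it in *Cnot3*-cKO cells (mean 332 RPKM for *Cct2* and 334 for *Cct5*), had 743 and 801 CPM in control and 883 and 814 CPM in *Cnot3*-cKO cells (log2 fold change 0.14, standard error 0.08, adjusted p = 0.257).

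Since TRiC subunits are present in equal numbers in the complex, ratios within a library were also examined for pairs chosen after their values were seen. *Cct6a* reads were 0.690 and 0.718 times *Cct8* reads in controls and 0.930 and 0.900 times in *Cnot3*-cKO cells. *Cct5* reads were 0.939 and 0.989 times the reads of *Tcp1*, the alpha subunit, in controls and 1.30 and 1.12 times in *Cnot3*-cKO cells. *Cct6a* gave 11.6% of TRiC reads in both controls and 13.8 and 13.5% in *Cnot3*-cKO cells. *Cct6b*, the testis form of the zeta subunit, had only 2.04 and 2.80 against 0.927 and 1.85 CPM (log2 fold change -0.78, standard error 0.40, adjusted p = 0.201), and both of its *Cnot3*-cKO values were below both controls. Neither mitochondrial chaperonin gene passed the test, and 0 had an unadjusted p under 0.05 or a DESeq2 call. *Hspd1* (HSP60) had 336 and 347 against 368 and 355 CPM (log2 fold change 0.08, standard error 0.08, adjusted p = 0.515), and *Hspe1* (HSP10), which starts 111 bases from it on the opposite strand, had 107 and 125 against 105 and 109 CPM (log2 fold change -0.12, standard error 0.10, adjusted p = 0.451). For *Hspd1*, 39.7% of 50-base windows are shared with other annotated genes, mainly a pseudogene.

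BAG genes encode nucleotide exchange factors of HSP70, and 1 of 6 was called lower (16.7%, beside 4.7% of all tested genes). *Bag1* (chr4:40936398-40948294, - strand), which links HSP70 to the proteasome and binds BCL2, had 149 and 174 CPM in control and 125 and 114 CPM in *Cnot3*-cKO cells. It fell to 0.739 of the control level (log2 fold change -0.44, standard error 0.10, adjusted p = 0.00767). The adjusted p was 0.0671 without *Cnot3*-cKO replicate 2, 0.0162 with library size scaling and 0.0896 after scaling to pan-germ cell genes. *Bag4*, also described after its values were seen, had 82.7 and 81.5 against 64.6 and 65.6 CPM (log2 fold change -0.33, standard error 0.10, adjusted p = 0.0265). *Bag5* was the sole BAG gene with higher values in both *Cnot3*-cKO libraries (13.0 and 12.6 against 15.8 and 16.2 CPM, log2 fold change 0.32, adjusted p = 0.187). *Bag3*, the stress-inducible member that directs clients to autophagy, had 5.24 and 4.56 against 5.74 and 4.75 CPM, and the groups overlapped (log2 fold change 0.09, standard error 0.24, adjusted p = 0.838).

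Among the heat shock factors, *Hsf3* was called higher and the main stress regulator *Hsf1* was not called. *Hsf3* (chrX:96306178-96456294, - strand), a less studied factor, had 2.83 and 2.40 CPM in control and 5.08 and 6.74 CPM in *Cnot3*-cKO cells. Its mean rose from 2.62 ± 0.304 to 5.91 ± 1.18 CPM (SD, n = 2), or 2.26-fold (log2 fold change 1.18, standard error 0.27, adjusted p = 0.00804). The adjusted p was 0.0116 without control replicate 2 and 0.0495 without *Cnot3*-cKO replicate 2, with a log2 fold change of 0.95 in the second case. *Hsf1* had 52.0 and 56.7 CPM in control and 42.4 and 41.3 CPM in *Cnot3*-cKO cells, both *Cnot3*-cKO values below both controls (log2 fold change -0.38, standard error 0.11, adjusted p = 0.0283). The adjusted p was 0.00307 without control replicate 1. *Hsf2*, which acts in spermatogenesis and was the most abundant factor, had 173 and 180.1 against 159 and 174 CPM, and the groups overlapped (log2 fold change -0.08, standard error 0.09, adjusted p = 0.562). *Hsf5*, a factor of meiotic spermatocytes, had 7.10 and 6.54 against 10.4 and 8.45 CPM (log2 fold change 0.46, adjusted p = 0.141), and *Hsf4* of the lens stayed near 1 CPM (1.19 and 1.33 against 1.06 and 0.489 CPM, log2 fold change -0.72, adjusted p = 0.369).

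By function, the 10 heat-inducible genes (*Hspa1a*, *Hspa1b*, *Hsph1*, *Dnajb1*, *Dnaja1*, *Hsp90aa1*, *Hspb1*, *Hspd1*, *Hspe1* and *Bag3*) had a median log2 fold change of 0.10. Of these, *Hspb1* and *Dnaja1* (2 genes, 20%, beside 6.21% of all tested genes) were called higher at any fold change. Above 2-fold it was *Hspb1* only (1 gene, 10%, beside 4.03%). Both *Cnot3*-cKO values exceeded the controls in 5 (50%, beside 30.5%), and the groups overlapped in the other 5. In the 5 constitutive genes (*Hspa8*, *Hsp90ab1*, *Hspa5*, *Hsp90b1* and *Hspa9*) the median was 0.15, and *Hsp90ab1* was called lower (20%, beside 4.7% of all tested genes). The 9 tested germ line members were *Hspa2*, *Hspa1l*, *Hspa4l*, *Dnajb3*, *Dnajb13*, *Hspb9*, *Hsf5*, *Cct6b* and *Bag5*. Of these, *Dnajb13* was called higher (11.1%, beside 6.21% of all tested genes), and the median was 0.23. Both *Cnot3*-cKO libraries lay above the controls in 4 (44.4%, beside 30.5% of all tested genes) and below in 4 (44.4%, beside 28.6%). These sets, like most subfamilies above, are small, so shares that rest on so few genes are no result about a set.

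Partners of these chaperones were examined as well. Of 29 cochaperones of HSP70 and HSP90, 0 rose and 2 fell (edgeR, adjusted p under 0.01), which is 0 and 6.90%, beside 6.21 and 4.7% of all tested genes. At an unadjusted p under 0.05 the counts were 3 and 6, and DESeq2 called 1 and 3. *Hyou1*, an HSP110 of the ER, had 576 and 610.0 against 439 and 419 CPM (log2 fold change -0.47, standard error 0.08, adjusted p = 0.00122). *Hsbp1*, a small protein that binds HSF1, had 63.3 and 70.9 against 44.5 and 43.2 CPM (log2 fold change -0.61, standard error 0.11, adjusted p = 0.00193). None of 18 genes for prefoldin and chaperonin helpers was called by edgeR or DESeq2, and 3 had an unadjusted p under 0.05 (median log2 fold change -0.01). Of 23 tested chaperones outside the families above, 2 rose (8.70%, beside 6.21% of all tested genes) and 3 fell (13.0%, beside 4.7%). *Serpinh1* (HSP47), the collagen chaperone, rose 2.06-fold (23.9 and 28.5 against 57.4 and 50.4 CPM, log2 fold change 1.04, standard error 0.13, adjusted p = 2.04e-04), and the Sertoli, Leydig and macrophage markers moved with it, a relation that was not tested. *Lonp2*, a peroxisomal protease, had 65.6 and 67.6 against 115 and 112 CPM (log2 fold change 0.77, standard error 0.09, adjusted p = 1.35e-04). The genes that fell were *Pdia3* (544 and 547 against 427 and 397 CPM, log2 fold change -0.40, adjusted p = 0.00305) and *Pdia4* (314 and 338 against 251 and 251 CPM, log2 fold change -0.38, adjusted p = 0.00578), disulfide isomerases of the ER, and *Nudcd3* (129 and 141 against 87.0 and 91.5 CPM, log2 fold change -0.59, adjusted p = 8.38e-04), an HSP90 cofactor.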

How the data were processed

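The data were bulk RNA-seq libraries of ID4-EGFP+ spermatogonia from postnatal day 8 testes, 2 from control and 2 from *Cnot3*-cKO mice. The authors deposited counts of reads per gene, which had not been normalized, and had made them with STAR on mm10 and featureCounts on a GENCODE annotation. The handling of strand and of reads that match several genes is not given in the sources used here. Groups followed the genotype in the labels. Chaperone genes and gene lists were chosen with earlier results of these data known.

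Counts were compared with edgeR 4.0.16 in R 4.3.3, using TMM scaling, the default expression filter (filterByExpr, minimum count 10) and the quasi-likelihood F test with group as the only term, with Benjamini-Hochberg adjustment over 23952 genes. Members were called at an adjusted p under 0.01, with and without a fold change above 2. With 2 libraries against 2, an exact two-sided permutation test per gene has a smallest possible p of 0.333, so adjusted p-values rest on the dispersion model (biological coefficient of variation 0.145). Library totals were 22192964 to 43378493 reads, and errors of single values are SDs of 2 libraries. CPM used TMM-scaled totals, and RPKM used exon lengths of GENCODE M21 on GRCm38.

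Full values were given to members called above 2-fold, to the highest, most raised and most lowered member of each subfamily, and to heat-inducible, constitutive and germ line sets. Other members that are described were chosen after their values were seen. Alternatives were DESeq2's size factors (RLE), library size only, pan-germ cell scaling, no filter on expression, a filter at a mean count of 50, a replicate block, DESeq2 1.42.0, glmTreat with a 2-fold limit, a threshold of 0.05, and leaving out each library. The procedure was tested on simulated counts drawn from the means and dispersions fitted to these libraries. Such counts cannot test the dispersion model itself or the part of other cells. Figures were drawn with matplotlib 3.10.9 in Python 3.11.15. Shared 50-base windows were counted in GENCODE M21 transcript sequences, and promoter windows came from RefSeq.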

Additional observations from a re-analysis of the deposited data

How the results depend on the processing

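Depth limits the scarce members, since 9 of the 90 had under 1 CPM in controls and standard errors grew to 0.62 there. With 2 libraries a group, each leave-one-out fit assumes that the lone library varies like the other group.

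The count of 3 members called higher above 2-fold was the same with RLE, library size only, no filter, a mean count of at least 50, DESeq2 and the replicate block, and was 4 with pan-germ cell scaling. Leaving out 1 library gave 2 to 3. A test against a 2-fold change (glmTreat) called 0, with 3 called by the standard test, which asks for any change. The count called lower above 2-fold stayed at 0 throughout. At any fold change, 6 members were higher and 3 lower. An adjusted p under 0.05 gave 10 and 7. Higher and lower calls were 9 and 1 with library size only, 9 and 0 with pan-germ cell scaling, and 6 and 3 with RLE. Of all tested genes, 1728 and 779 were called with library size only and 1907 and 358 with pan-germ cell scaling. The calls over all tested genes were 1440 and 1150 with RLE, against 1488 and 1125 with TMM. Members called were 8 and 5 with no filter, 8 and 3 at a mean count of at least 50, and 7 and 3 with DESeq2. Leaving out 1 library gave 3 to 12 higher and 0 to 7 lower. Without *Cnot3*-cKO replicate 1 the counts were 3 and 2, without *Cnot3*-cKO replicate 2 they were 3 and 0, without control replicate 1 they were 8 and 7, and without control replicate 2 they were 12 and 3. Apart from the scalings, the counts over all tested genes were not computed for these settings or for the fits without 1 library. The differences between settings are thus no result about chaperone genes, and their cause was not tested.

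The replicate numbers are not said to mark a shared litter or day, and same-numbered libraries had deviations with a correlation of 0.0776 over 16437 genes, so the numbers were not taken to pair the samples. The replicate block gave 8 members higher and 3 lower at any fold change, and the counts over all tested genes were not computed. The additions were *Cct5* (adjusted p = 0.00460) and *Dnajc3* (adjusted p = 0.00542), and no other call changed among the members described.

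Median log2 fold changes moved with scaling. With library size only they were -0.046 for BAG, 0.25 for DNAJA, 0.27 for DNAJB, 0.18 for DNAJC, 0.16 for HSP70, 0.12 for HSP90, 0.12 for TRiC and 0.16 for all members. With pan-germ cell scaling they were 0.040 for BAG, 0.34 for DNAJA, 0.36 for DNAJB, 0.26 for DNAJC, 0.07 for HSF, 0.24 for HSP70, 0.21 for HSP90, 0.21 for TRiC, 0.13 for the mitochondrial chaperonin and 0.25 for all members. DNAJA was at 0.18 with RLE and with DESeq2, 0.16 with no filter and 0.22 at a mean count of at least 50, where HSF was at 0.22 and small HSP at 0.15 because fewer genes were tested. Leaving out 1 library gave -0.20 to -0.059 for BAG, 0.17 to 0.19 for DNAJA, 0.064 to 0.28 for DNAJB, 0.0018 to 0.16 for DNAJC, -0.16 to -0.029 for HSF, 0.06 to 0.09 for HSP70, -0.02 to 0.10 for HSP90, -0.04 to 0.14 for TRiC, 0.18 to 0.84 for small HSP, -0.10 to 0.040 for the mitochondrial chaperonin and 0.027 to 0.090 for all members.

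Direction changed in members near 0. *Dnaja2* was at -0.0017 with RLE and DESeq2 and -0.018 with no filter, and *Cct8* was at -0.010 with RLE and DESeq2 and -0.027 with no filter. With pan-germ cell scaling *Hspe1* was at 0.034, *Hsf2* at 0.066 and *Dnaja3* at 0.085. Leaving out 1 library gave -0.039 to 0.033 for *Dnaja2*, -0.044 to 0.024 for *Cct8*, -0.17 to 0.012 for *Dnaja3*, -0.019 to 0.11 for *Hsp90aa1*, -0.0059 to 0.29 for *Hspa5*, -0.064 to 0.14 for *Hsph1*, -0.054 to 0.22 for *Bag3* and -0.053 to 0.26 for *Hspa1a*.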
